A study of Mus musculus with 4 samples.

Results

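Collagens are the structural proteins of the extracellular matrix, each built from alpha chains wound into a helix and each chain encoded by a gene of its own. The collagen genes were taken as every symbol in the count table made of Col, a type number, the letter a and a chain number. This gave 44 genes of 23377 in the table. Messenger RNA was counted in 4 libraries of mouse cancer-associated fibroblasts (CAFs), the fibroblasts that live inside a tumour. The labels mark 2 libraries, titled RES4, as associated with resistant tumours and 2, titled WTA, as associated with normal tumours. They name no strain, age, genotype, drug or sort for either group, and each group goes by 1 name, which may stand for 1 tumour or culture. Nothing states that replicates are separate animals or cultures, so the p-values here reflect spread among 4 libraries that may be technical. The study concerns how tumours adapt to therapies aimed at MET and EGFR, and the comparison asked how CAFs of the 2 kinds of tumour differ.

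Fibrillar collagens (I, III, V and others) form the banded fibres that give tissue its tensile strength, and fibroblasts are their main source. Collagen IV forms the sheet-like network of basement membranes, where collagens VII, XV and XVIII also lie. Collagen VI forms beaded microfibrils at the border between the fibres and the cell, FACIT collagens (fibril-associated, with interrupted helices) decorate fibres, and a few collagens span the cell membrane. A chain that needs partners is secreted only as part of a complete molecule, so the levels of partner genes are described together here.

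Library totals ran from 2785936 to 5558541 reads. In the test described below, 15.5% of all genes tested were higher and 13.9% lower in the resistant group. These are the shares to set beside the marker counts. Of 11 fibroblast markers, 10 were tested and 9 were higher in the resistant group, where their summed level was 4566 to 5057 CPM (read counts scaled to library size with TMM factors) against 1578 to 1921 CPM in the normal group; Lum had no read in the normal libraries. Schwann cell and neural crest markers summed to 303 to 306 CPM in the resistant and 1436 to 1592 CPM in the normal group, with 7 of 9 tested markers lower in the resistant group and Foxd3 without a read in the resistant libraries. Cartilage markers summed to 147 and 58.7 CPM in the resistant and 17.8 and 25.2 CPM in the normal libraries, mostly Sox9, the 1 tested member, which was called higher; Acan, Matn1, Hapln1 and Lect1 had no read in any library. Endothelial markers summed to at most 5.95 CPM. Of 8 epithelial markers, Epcam, Krt5, Cdh1 and Cldn4 had no read, and the list summed to 45.7 and 63.9 CPM in the resistant libraries, nearly all of it Krt19, and to 9.66 and 9.26 CPM in the normal ones. Of 9 tested smooth muscle and pericyte markers 2 were higher and 2 lower, and their sum was 644 and 802 CPM against 1088 and 949 CPM. Within it, Cspg4 and Mcam had lower levels in both resistant libraries and Myh11 had no read in the normal ones. Osteoblast markers summed to 444 and 512 CPM against 239 and 268 CPM, of which Spp1 made up 387 and 470.2 CPM against 133 and 132 CPM. In that list 1 of 2 tested members was higher and 1 lower, Runx2 stood at 56.7 and 39.6 CPM against 106 and 136 CPM, and Bglap, Bglap2 and Ibsp were at 0 throughout. Leukocyte markers summed to at most 18.4 CPM, with Ptprc, Emr1 and Cd3e at 0. The part of these markers in the collagen results was not tested. In bulk RNA, fewer cells of a type and less RNA per cell cannot be told apart.

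Resistant tumour CAFs had higher levels of the genes for collagens I, III, VI, XII and XIV and lower levels of those for the main collagen IV chains and for collagens XVIII and XXVII. Reads fell in 39 of the 44 collagen genes, and 24 had enough of them to be tested. In edgeR's quasi-likelihood test with Benjamini-Hochberg adjustment over 12001 genes, 11 of the 24 were higher and 4 lower in the resistant group, and 9 did not pass an adjusted p of 0.05. Over all genes tested 29.4% were called, 15.5% higher and 13.9% lower, against 62.5%, 45.8% and 16.7% of the collagen genes. The median log2 fold change of the 24 was 0.53, beside -0.0036 for all genes tested. All 15 called collagen genes had libraries that did not overlap between the groups, and so had 3 of the other 9, where 64.7% of all genes tested had this. Without resistant replicate 1, 8 were higher and 9 lower of 23 tested, with 16.0% and 18.7% of all genes called in those directions. The 5 genes that were added to the lower side in that fit were Col5a1, Col5a3, Col7a1, Col8a1 and Col15a1. Col1a1 and Col17a1 lost their call there, and Col4a6 was not tested.

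**Figure D1:**
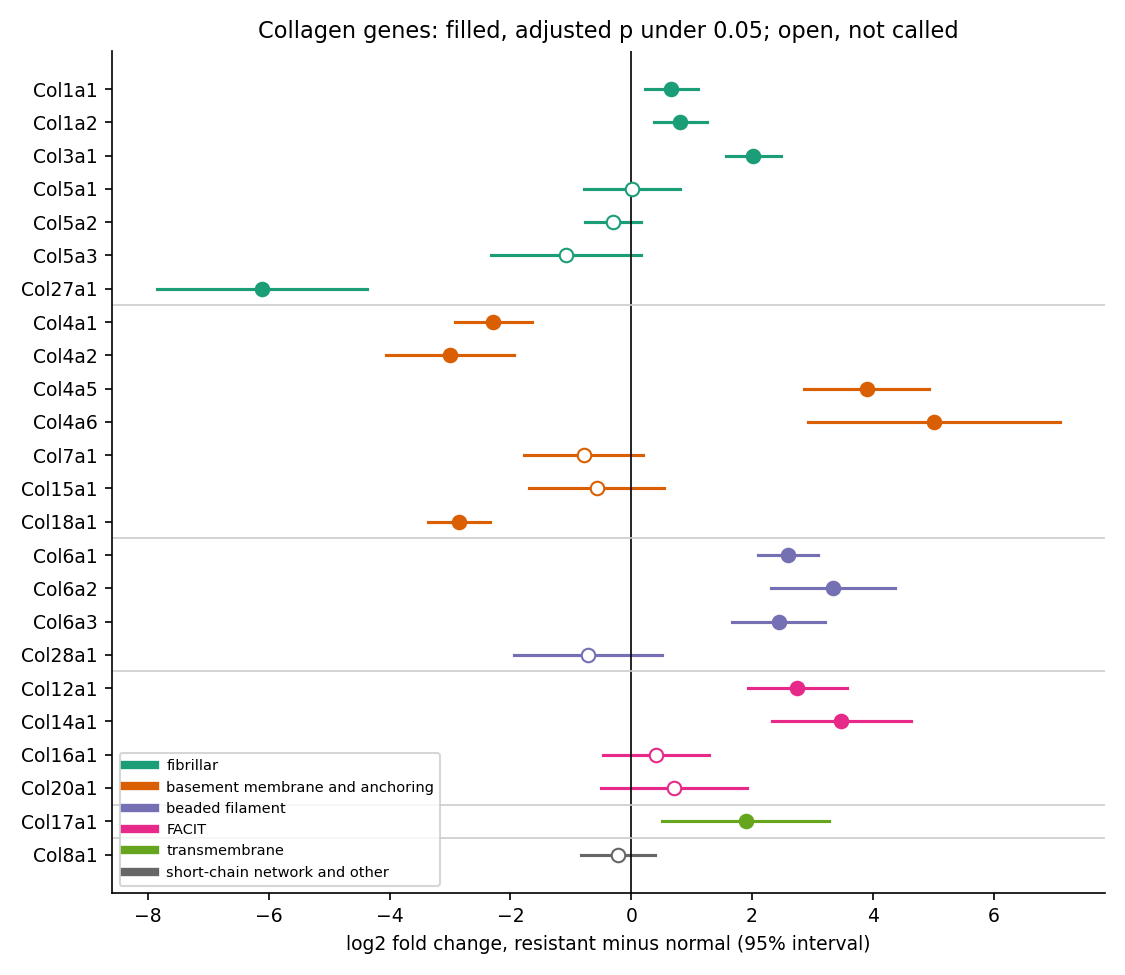
Log2 fold change (resistant minus normal, x axis) of the 24 tested collagen genes (y axis), with 95% intervals from edgeR's quasi-likelihood fit over 4 libraries, coloured by class. Filled points passed an adjusted p of 0.05: the 11 on the right include all tested chains of collagens I and VI, and the 4 on the left are Col27a1, Col4a1, Col4a2 and Col18a1.

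Reads of all collagen genes made up 1.05% (95% Wilson interval 1.04 to 1.06) and 0.882% (0.871 to 0.893) of the resistant libraries and 0.702% (0.694 to 0.710) and 0.615% (0.608 to 0.621) of the normal libraries. The mean was 0.967% ± 0.121 (SD, n = 2) against 0.658% ± 0.0617, higher in both resistant libraries than in both normal ones, with a two-sided exact permutation p of 0.333, the smallest that 2 against 2 libraries allow. The make-up by class differed more than the total. Beaded filament genes took 26.3% and 23.0% of collagen reads in the resistant libraries and 7.32% and 5.50% in the normal ones. Basement membrane and anchoring genes took 5.10% and 3.56% in the resistant libraries but 23.1% and 23.6% in the normal ones. The share of fibrillar genes overlapped, at 58.0% and 66.3% against 62.0% and 62.2%. FACIT genes held 7.86% and 5.07% against 3.48% and 3.82%.

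**Figure D2:**
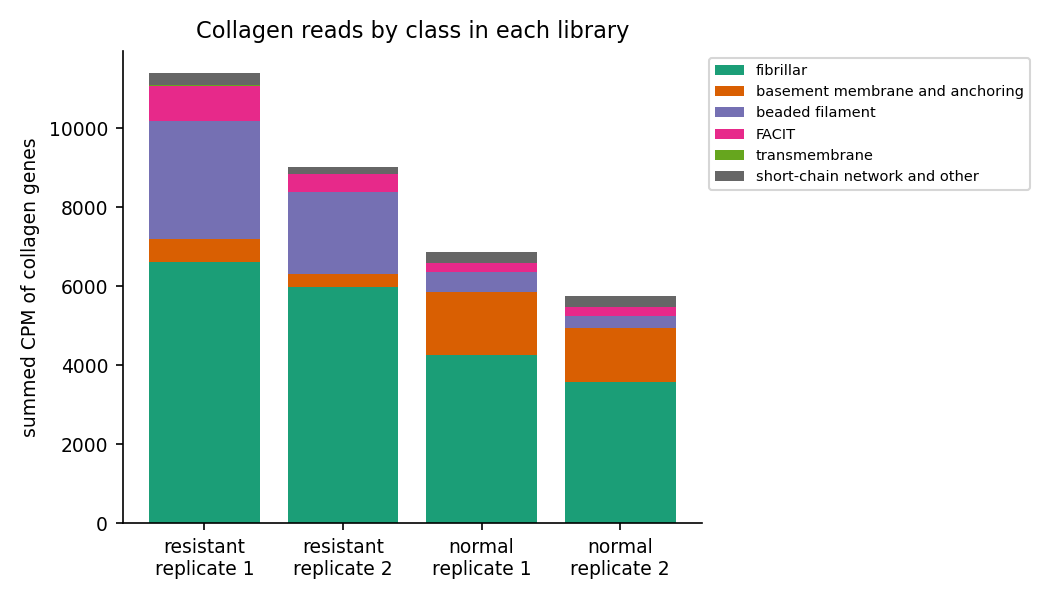
Summed CPM of the collagen genes (y axis) in each of the 4 libraries (x axis), stacked by class. The band of beaded filament genes is 2999 and 2074 CPM in the resistant and 503 and 316 CPM in the normal libraries, and the basement membrane band is 581 and 321 against 1588 and 1355 CPM.

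Among the fibrillar collagens, 3 of 7 tested genes rose, 1 fell and 3 did not pass. For this and each class below, the shares over all genes tested were 15.5% higher and 13.9% lower. Each class holds few tested genes. Col1a1 and Col1a2 encode the chains of collagen I, the most abundant fibre collagen, which assembles from more Col1a1 than Col1a2 product. Col1a1 was at 1689 and 1703 CPM in the resistant and 1180.3 and 965 CPM in the normal libraries. Its partner Col1a2 was at 1868 and 1844 CPM in the resistant and 1148 and 963 CPM in the normal libraries. For both genes the resistant replicates lay close together and above both normal libraries. The log2 fold changes were 0.66 ± 0.20 (SE, adjusted p = 0.0268) for Col1a1 and 0.81 ± 0.20 (adjusted p = 0.00838) for Col1a2. The call of Col1a1 did not hold in 5 of 12 alternatives: without resistant replicate 1 (adjusted p = 0.0781), without resistant replicate 2 (adjusted p = 0.128), without normal replicate 2 (adjusted p = 0.177), with DESeq2 (adjusted p = 0.0940), and with each library's trend along read density removed (log2 fold change 0.29, adjusted p = 0.204). For Col1a2 the call was lost when resistant replicate 2 was left out (adjusted p = 0.0704).

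Per kilobase of the principal transcript, Col1a1 stood at 0.815 and 0.833 times Col1a2 in the resistant libraries and 0.927 and 0.904 times in the normal libraries. The ratio was lower in both resistant libraries than in both normal ones. For this and every other ratio of chains below, an exact permutation test of 2 against 2 libraries cannot give a p under 0.333.

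Col3a1 encodes the single chain of collagen III, which is laid down with collagen I in soft tissue. It was at 1605 and 1483 CPM in the resistant and 392 and 370.5 CPM in the normal libraries. The groups were far apart and the replicates of each lay close, with a log2 fold change of 2.02 ± 0.21 (adjusted p = 2.6e-05) that passed in all 12 alternatives. Set against collagen I per kilobase, Col3a1 was at 1.01 and 0.928 times Col1a1 in the resistant libraries but 0.354 and 0.409 times in the normal ones, with no overlap.

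Collagen V is a minor component of collagen I fibres and is known for starting them and limiting their width. Its chain gene Col5a2 lies next to Col3a1 in the GENCODE annotation, tail to tail. Col5a2 was at 585 and 641 CPM in the resistant and 795 and 719 CPM in the normal libraries, a log2 fold change of -0.30 (95% interval -0.76 to 0.15, adjusted p = 0.319). The resistant libraries lay below both normal ones, but the difference did not pass the test. Per kilobase, Col5a2 stood at 0.310 and 0.337 times Col1a1 in the resistant libraries and 0.603 and 0.667 times in the normal libraries.

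Col5a1, the other main chain of collagen V, was at 799 and 297 CPM in the resistant and 629 and 458 CPM in the normal libraries. The normal values lay between the resistant ones, and the log2 fold change was 0.01 (95% interval -0.78 to 0.81, adjusted p = 0.983). Col5a1 was called lower without resistant replicate 1 (-0.86, adjusted p = 0.0407). Col5a3, a chain of more restricted expression, was at 51.4 and 10.3 CPM against 57.2 and 72.5 CPM. Both resistant libraries were below both normal ones, by 1.08 on the log2 scale (95% interval of the log2 fold change -2.31 to 0.16, adjusted p = 0.185). Without resistant replicate 1 the value for Col5a3 was -2.65 (adjusted p = 0.00265), with the replicate number as a block it was -1.39 (adjusted p = 0.00246), and with no low-count filter it was -1.14 (adjusted p = 0.0332). The ratio of Col5a1 to Col5a2 per kilobase was 1.08 and 0.365 in the resistant and 0.623 and 0.502 in the normal libraries. This ratio thus differed more between the resistant replicates than between the groups.

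Col27a1, a fibrillar collagen best known from cartilage, had 3 and 0 reads in the resistant libraries and 220 and 165 reads in the normal libraries. A count of 0 allows up to 3 reads, or 1.08 CPM in resistant replicate 2 by its library total. The ratio of pooled CPM, normal over resistant, was 68.8 (95% exact counting interval 23.4 to 335), and the test gave an adjusted p of 1.2e-04, passing in all 12 alternatives. The other fibrillar genes, Col2a1, Col11a1, Col11a2 and Col24a1, were not tested. Col2a1, the main collagen of cartilage, had 2 reads in all.

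**Figure D3:**
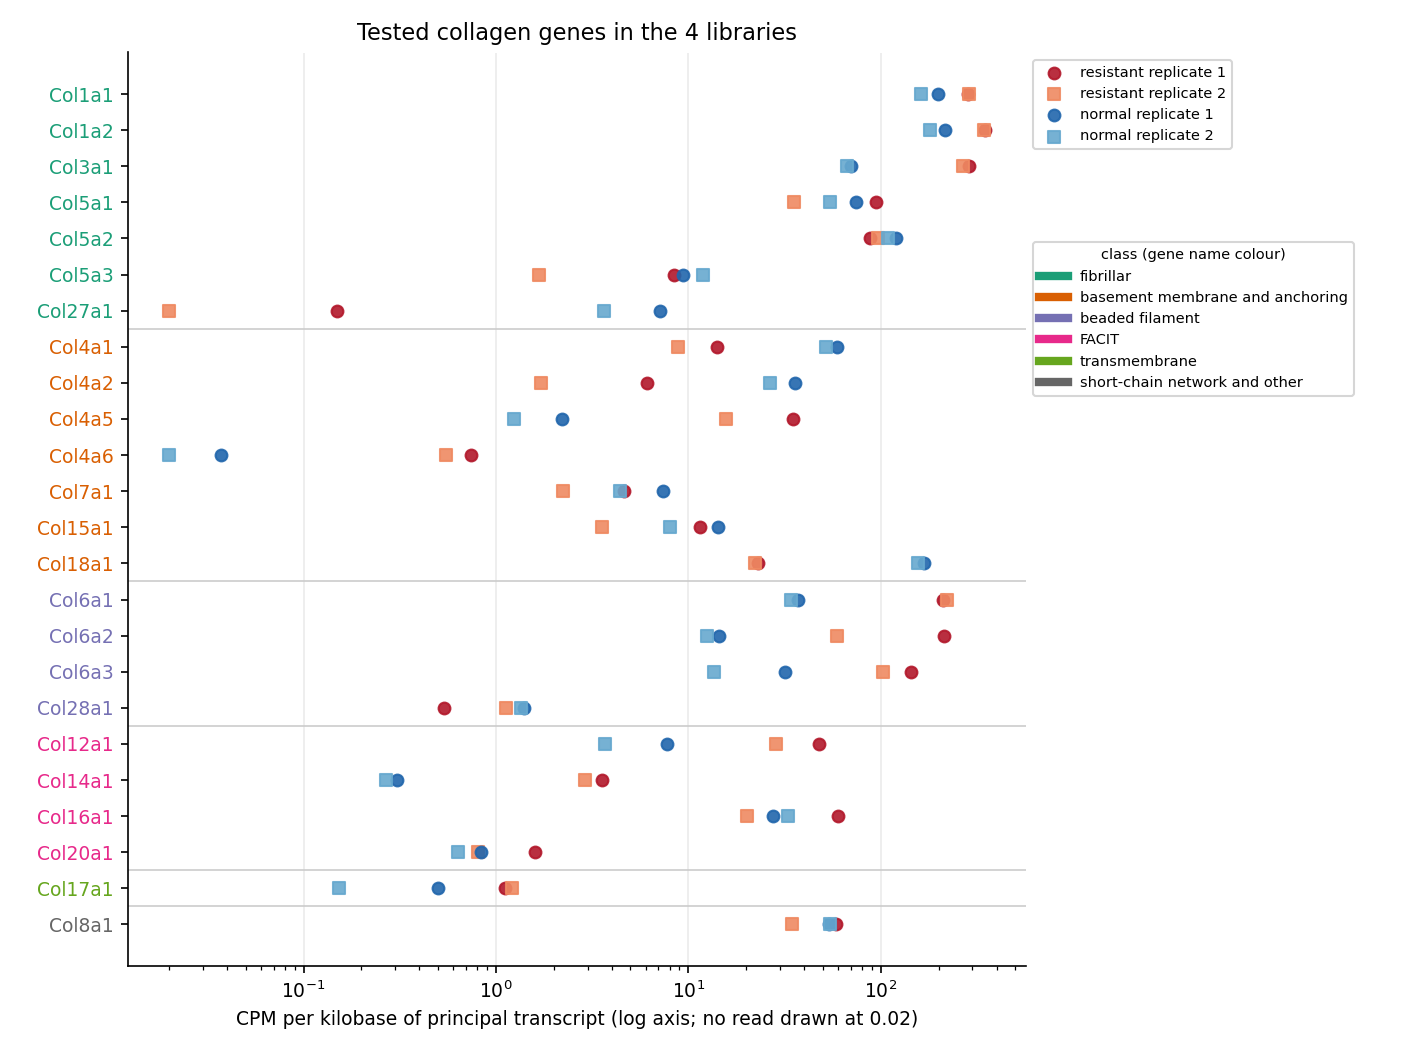
Level of the 24 tested collagen genes (y axis, name coloured by class) in each library, in CPM per kilobase of the principal transcript (x axis, log scale; libraries with no read are drawn at 0.02). Col1a2 is highest in every library, and the resistant (red, orange) and normal (blue) points of Col3a1, Col6a1, Col18a1 and Col4a5 lie well apart.

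The basement membrane and anchoring genes moved in both directions: of 7 tested, 2 rose, 3 fell and 2 did not pass. Collagen IV genes lie in head-to-head pairs, each pair facing away from a common stretch of DNA. The products of Col4a1 and Col4a2 make the network found in nearly all basement membranes, and that of Col4a5 joins either Col4a6 or Col4a3 and Col4a4 products in a more restricted set. Both genes of the first pair fell, and both genes of the Col4a5 and Col4a6 pair rose. The members of each pair thus moved together, and the sequence before the starts of Col4a1 and Col4a2 is not shown. For the pair that rose, the sequence before the start of each gene is shown. It comes from RefSeq on GRCm38.p6, of which a script kept the part of the last 250 bases that lies outside every exon annotated by GENCODE. The files use mm9, so these positions apply to GRCm38 only. The Col4a5 stretch is chrX:141475169-141475384, plus strand, and that of Col4a6 is chrX:141474077-141474326, minus strand. Capitals mark matches to GGGCGG (GC box), CCAAT or TATAAA on either strand, and the stretches run 5′ to 3′ along each gene.
Col4a5: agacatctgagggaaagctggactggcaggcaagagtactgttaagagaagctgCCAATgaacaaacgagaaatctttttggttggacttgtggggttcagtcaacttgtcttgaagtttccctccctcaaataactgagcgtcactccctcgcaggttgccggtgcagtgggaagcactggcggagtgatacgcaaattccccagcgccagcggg
Col4a6: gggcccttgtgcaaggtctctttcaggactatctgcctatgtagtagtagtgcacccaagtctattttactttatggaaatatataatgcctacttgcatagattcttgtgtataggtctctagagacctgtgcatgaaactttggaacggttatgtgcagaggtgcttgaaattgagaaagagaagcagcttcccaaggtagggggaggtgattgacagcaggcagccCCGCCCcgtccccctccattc
The Col4a5 stretch holds 1 CCAAT match and that of Col4a6 holds 1 GC box match. In the RefSeq annotation 1342 bases lie between the starts of these genes, whereas the starts of Col4a1 and Col4a2 overlap by 22 bases. Over 32851 windows of 250 bases before annotated starts, 32.7% held the GC box, 33.8% CCAAT and 12.4% TATAAA. Of 38 such windows, which cover 35 of the 44 collagen genes, 57.9% held the GC box, 34.2% CCAAT and 13.2% TATAAA. A match is a description of letters and not a site of binding.

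Col4a1 was at 92.8 and 58.4 CPM in the resistant and 394 and 342 CPM in the normal libraries. Its partner Col4a2 was at 39.2 and 11.01 CPM in the resistant and 230.2 and 172 CPM in the normal libraries. Neither gene's groups overlapped. Col4a1 fell by 2.28 ± 0.29 and Col4a2 fell by 3.003 ± 0.49 on the log2 scale (adjusted p = 1.09e-04 and 5.35e-04), and both passed in all 12 alternatives. Per kilobase, Col4a1 was 1.67 and 1.94 times Col4a2 in the normal libraries and 2.31 and 5.17 times in the resistant ones.

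Col4a5 was at 229 and 103 CPM in the resistant and 14.4 and 8.08 CPM in the normal libraries. Even the lower resistant library lay several-fold above both normal ones, and the log2 fold change was 3.90 ± 0.48 (adjusted p = 7.48e-05), passing in all 12 alternatives. Col4a6 had 13 and 10 reads in the resistant and 1 and 0 in the normal libraries, a ratio of pooled CPM of 42.9 (95% exact counting interval 6.96 to 1766) and an adjusted p of 0.00169. It was tested in 9 of the 12 alternatives and did not pass in 1 of them, without normal replicate 2 (adjusted p = 0.0551). The remaining pair, Col4a3 and Col4a4, had 2 and 12 reads over all libraries and was not tested.

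Across the 6 chains per kilobase, Col4a1 and Col4a2 together made up 97.7% and 98.3% of collagen IV transcripts in the normal libraries and 35.8% and 39.2% in the resistant ones. Col4a5 and Col4a6 together made up 2.29% and 1.55% in the normal and 63.8% and 60.8% in the resistant libraries, almost all of it Col4a5. The ratio of Col4a5 to Col4a1 was 2.501 and 1.79 in the resistant and 0.0369 and 0.0239 in the normal libraries. Summed over the chains, collagen IV stood at 56.2 and 26.9 CPM per kilobase in the resistant and 97.5 and 79.8 in the normal libraries.

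**Figure D4:**
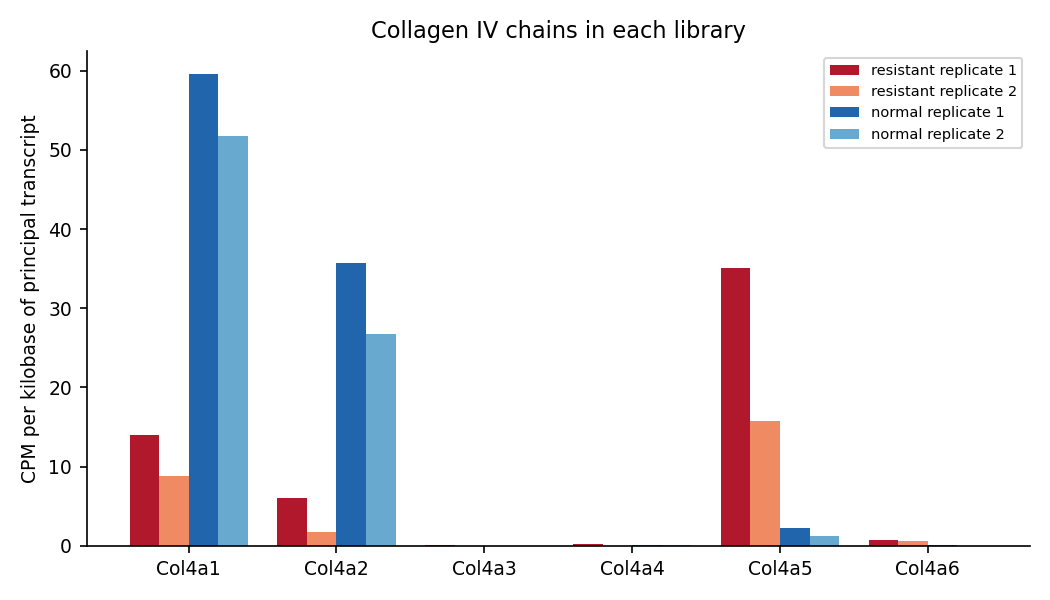
Level of the 6 collagen IV chain genes (x axis) in CPM per kilobase of the principal transcript (y axis), 1 bar per library. Col4a1 and Col4a2 are highest in the normal libraries, Col4a5 is highest in the resistant ones, and Col4a3, Col4a4 and Col4a6 stay under 1 in every library.

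Collagen XVIII belongs to the basement membrane zone, and the end of its chain can be released as endostatin, an inhibitor of blood vessel growth. Its gene Col18a1 was at 110.3 and 106 CPM in the resistant and 807 and 749 CPM in the normal libraries. The replicates of each group lay close together and the groups far apart, and the gene fell by 2.85 ± 0.24 on the log2 scale (adjusted p = 8.03e-06), passing in all 12 alternatives. Per kilobase it ranked next after the chains of collagen I in both normal libraries. The stretch before one of its annotated starts is shown as an example of a gene that fell. That of Col27a1, which also fell, holds 1 GC box match, as does that of Col4a6, which rose, and is not shown. Another Col18a1 start has only 9 bases outside annotated exons and is not shown. The Col18a1 stretch shown lies at chr10:77166549-77166780, minus strand (GRCm38.p6). It has 3 matches to the GC box and 1 to CCAAT in capitals, all on the antisense strand.
Col18a1: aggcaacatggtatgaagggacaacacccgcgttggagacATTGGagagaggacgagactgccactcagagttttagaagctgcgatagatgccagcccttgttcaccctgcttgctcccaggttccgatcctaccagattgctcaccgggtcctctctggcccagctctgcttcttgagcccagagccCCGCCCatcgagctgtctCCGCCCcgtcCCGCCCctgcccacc

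Its nearest relative Col15a1 was at 59.4 and 18.4 CPM against 73.8 and 41.7 CPM, overlapping values with a log2 fold change of -0.57 (95% interval -1.69 to 0.55, adjusted p = 0.455). Col7a1, which forms the anchoring fibrils under epithelia, was at 42.6 and 20.6 CPM against 68.4 and 40.9 CPM, a log2 fold change of -0.79 (95% interval -1.77 to 0.19, adjusted p = 0.222). Without resistant replicate 1 both were called lower, Col15a1 at -1.64 (adjusted p = 0.0309) and Col7a1 at -1.40 (adjusted p = 0.0438).

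Collagen VI, whose microfibrils link cells and basement membranes to the fibres, rose in all of its tested chains. It is assembled from Col6a1, Col6a2 and Col6a3 products in equal parts. Col6a1 and Col6a2 lie side by side in the annotation, head to tail, and Col6a3 on another chromosome. The stretches before their starts are shown because these partners moved together, chosen and marked as above. They are chr10:76726169-76726294, minus strand, chr10:76623631-76623880, minus strand and chr1:90843972-90844221, minus strand (GRCm38.p6).
Col6a1: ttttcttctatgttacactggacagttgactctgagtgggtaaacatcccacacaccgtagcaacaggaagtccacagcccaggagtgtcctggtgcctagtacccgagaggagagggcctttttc
Col6a2: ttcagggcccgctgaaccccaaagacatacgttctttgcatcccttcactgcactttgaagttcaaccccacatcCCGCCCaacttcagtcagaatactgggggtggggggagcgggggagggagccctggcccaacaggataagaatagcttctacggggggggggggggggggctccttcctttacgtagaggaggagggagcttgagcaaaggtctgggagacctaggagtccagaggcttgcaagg
Col6a3: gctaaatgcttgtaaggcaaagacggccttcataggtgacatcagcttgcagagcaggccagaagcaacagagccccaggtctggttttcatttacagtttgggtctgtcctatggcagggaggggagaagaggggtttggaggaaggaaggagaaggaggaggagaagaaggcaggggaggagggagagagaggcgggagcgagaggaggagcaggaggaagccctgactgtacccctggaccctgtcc
Another Col6a2 start has only 24 bases outside annotated exons and is not shown. The Col6a1 stretch is 126 bases long and ends 124 bases before the RefSeq start, since annotated exons were left out. Those of Col6a2 and Col6a3 are 250 bases long and reach the start. Only the Col6a2 stretch holds a match, to the GC box on the antisense strand. That says nothing of the other stretches beyond their letters.

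Col6a1 was at 868 and 907 CPM in the resistant and 153 and 139.7 CPM in the normal libraries. Col6a2 was at 839 and 235 CPM against 57.0 and 49.1 CPM. Col6a3 was at 1288 and 926 CPM against 287 and 122 CPM. All resistant libraries lay above all normal ones for each chain, although Col6a2 differed between the resistant replicates and Col6a3 between the normal ones. The log2 fold changes were 2.60 ± 0.23 for Col6a1, 3.34 ± 0.47 for Col6a2 and 2.44 ± 0.35 for Col6a3 (adjusted p = 1.03e-05, 2.11e-04 and 2.52e-04), and all passed in all 12 alternatives. Per kilobase, Col6a1 was 0.996 times Col6a2 in resistant replicate 1, 3.71 times in resistant replicate 2, and 2.58 and 2.74 times in the normal libraries. Its ratio to Col6a3 was 1.48 and 2.15 in the resistant and 1.17 and 2.52 in the normal libraries. Neither ratio separated the groups. Of the alternative chains, Col6a4 and Col6a6 had no read in any library and Col6a5 had 1. Col28a1, grouped with the beaded filament genes for its similar domains and known from peripheral nerve, was at 2.28 and 4.77 CPM against 5.95 and 5.72 CPM, a log2 fold change of -0.71 (95% interval -1.94 to 0.51, adjusted p = 0.385).

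Among the FACIT collagens, 2 of 4 tested genes rose and 2 did not pass. Col12a1, whose product bridges collagen I fibres in tissue under load, was at 553 and 330.3 CPM in the resistant and 88.9 and 42.6 CPM in the normal libraries, a log2 fold change of 2.75 ± 0.37 (adjusted p = 1.56e-04). Col14a1, its close relative, was far lower per kilobase and was at 20.2 and 16.5 CPM against 1.73 and 1.51 CPM, higher by 3.48 ± 0.53 on the log2 scale (adjusted p = 3.58e-04). Both genes passed wherever they were tested, Col12a1 in 12 and Col14a1 in 11 alternatives. Col16a1 was at 312 and 105 CPM in the resistant and 143 and 171 CPM in the normal libraries. The normal values lay between the resistant ones, with a log2 fold change of 0.41 (95% interval -0.47 to 1.28, adjusted p = 0.503), 0.99 without resistant replicate 2 (adjusted p = 0.0172) and -0.58 without resistant replicate 1 (adjusted p = 0.0850). Col20a1 was at 7.99 and 4.04 CPM against 4.21 and 3.20 CPM, with overlapping groups (log2 fold change 0.70, 95% interval -0.51 to 1.92, adjusted p = 0.388). Collagen IX, which decorates cartilage fibres, was close to absent at this depth: Col9a1 had no read, Col9a2 had 2 and Col9a3 had 15 over the 4 libraries.

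Of the transmembrane collagens only Col17a1 was tested, a part of the hemidesmosomes that fasten epithelial cells to the basement membrane. It had 16 and 18 reads in the resistant and 11 and 5 in the normal libraries, or 6.09 and 6.61 CPM against 2.73 and 0.842 CPM. The log2 fold change of 1.89 ± 0.64 (adjusted p = 0.0414) was called in 5 of 11 alternatives and in none that left out a library, with adjusted p from 0.0566 to 0.528 in those 4. Col13a1 had no read, and Col23a1 and Col25a1 had 17 and 14 reads in all. Col23a1 had 12 of its reads in resistant replicate 1 and none in resistant replicate 2. Col8a1, which forms a network in vessel walls and beneath endothelium, was at 300.6 and 176 CPM against 274 and 279 CPM (log2 fold change -0.21, 95% interval -0.83 to 0.40, adjusted p = 0.623). Its partner Col8a2 had 2 reads, both in resistant replicate 1. Col26a1 had no read and Col10a1, a mark of growth plate cartilage, had 12.

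In all, 20 collagen genes were not tested, 5 of them without a read and 15 with 1 to 24 reads over the 4 libraries. By library totals a count of 0 allows up to 0.540 to 1.08 CPM. These limits, the intervals of the read shares and those of the pooled ratios reflect counting error alone, as no molecular tags are mentioned.

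The resistant replicates differed from each other in many collagen genes. The ratio of replicate 1 to replicate 2 was 5.00 for Col5a3, 3.57 for Col6a2, 3.56 for Col4a2, 3.23 for Col15a1, 2.98 for Col16a1 and 2.69 for Col5a1. It was 0.992 for Col1a1, 1.01 for Col1a2, 1.08 for Col3a1, 0.957 for Col6a1 and 1.04 for Col18a1. Both sets thus include chains of the same molecule, Col6a1 beside Col6a2. On the log2(CPM + 1) scale the median difference of the 24 tested genes was 0.70 in the resistant group, beside 0.04 for all genes tested, and 0.27 in the normal group, beside -0.0015. More than 2-fold higher in replicate 1 were 9 of 24 (37.5%) in the resistant group, beside 11.4% of all genes tested. In the normal group it was 3 of 24 (12.5%), beside 3.46% of all genes tested. Across the 24 genes the difference had a Spearman correlation of 0.47 with the GC content of the principal transcript and 0.15 with its length. The log2 fold change between groups had -0.48 and -0.037 with the same properties. Genes share their libraries and are not independent, and the part of base composition in the group difference was not tested. The labels describe library preparation by TruSeq and by SMART-seq2 without saying which libraries had which. If preparation differed between libraries, its part could not be told apart from that of group or replicate.

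**Figure D5:**
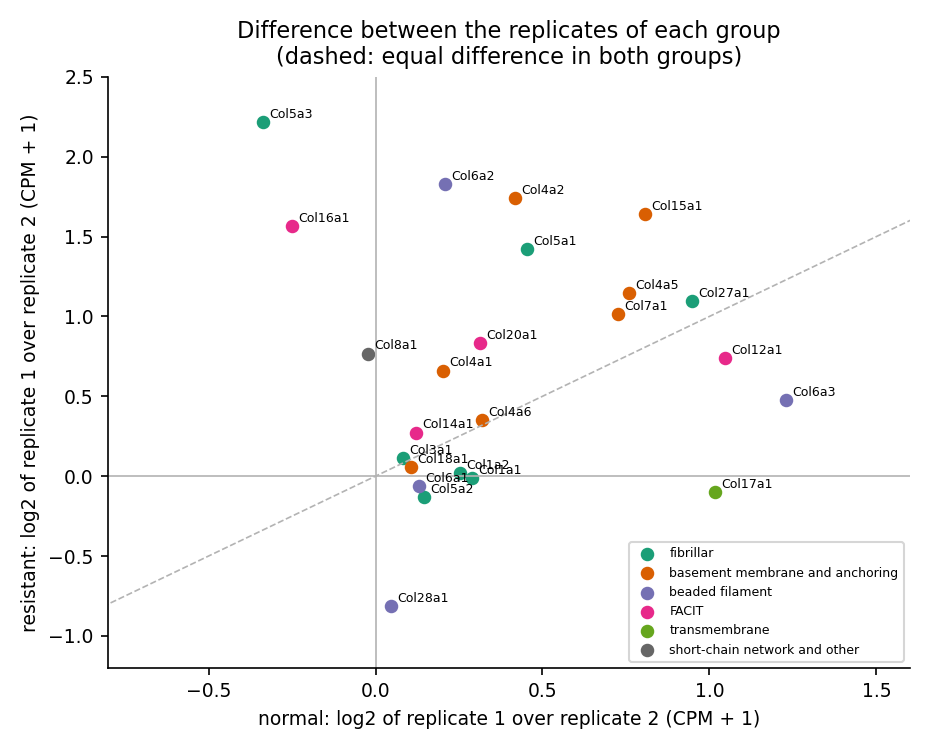
Log2 of replicate 1 over replicate 2 (CPM + 1) in the resistant group (y axis) against the normal group (x axis), 1 point per tested collagen gene, coloured by class. Col5a3, Col6a2, Col4a2, Col15a1 and Col16a1 stand highest on the y axis, while Col1a1, Col1a2, Col3a1, Col6a1, Col5a2 and Col18a1 lie near 0 on it.

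Genes that build, trim and read collagen were taken from 4 lists, chosen with earlier results of these data known. That choice may raise the shares called, so they are given as a description. Of 62 tested, 34 were higher and 7 lower in the resistant group, with a median log2 fold change of 1.17. Called higher were 15.5% and lower 13.9% of all genes tested, and 29.4% in either direction, which is the share to set beside each list. Among folding and modifying enzymes, 8 of 20 tested rose, 1 fell and 11 did not pass (45.0% called, beside 29.4% of all genes). The prolyl hydroxylase subunits P4ha1 and P4ha2, which give the helix its heat stability, rose by 1.83 ± 0.24 and 1.46 ± 0.26 on the log2 scale. P4ha1 went from 159.6 and 163 CPM in the normal to 503 and 643 CPM in the resistant libraries. Leprel2, a prolyl 3-hydroxylase gene, rose by 2.64 ± 0.42 and Fkbp10, a chaperone of procollagen in the endoplasmic reticulum, by 1.82 ± 0.25. The adjusted p of these 4 ran from 1.28e-04 to 9.86e-04.

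Among procollagen processing and cross-linking genes, 7 of 12 tested rose, 1 fell and 4 did not pass (66.7% called, beside 29.4%). Lox, which cross-links collagen, was at 1239 and 1148 CPM in the resistant and 221 and 187 CPM in the normal libraries. Loxl3, of the same family, was at 629 and 585 CPM against 148 and 173 CPM. The enhancers of procollagen cleavage split. Pcolce was at 496 and 503 CPM against 183 and 188 CPM, a log2 fold change of 1.43 ± 0.23. Pcolce2 was at 6.85 and 8.81 CPM against 69.1 and 76.2 CPM, and fell by 3.21 ± 0.43 on the log2 scale (adjusted p = 1.34e-04).

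Collagen receptors changed in both directions, with 4 of 10 tested higher, 4 lower and 2 not called (80.0% called, beside 29.4%). Itga11, the integrin alpha chain that binds collagen I on fibroblasts, was at 464 and 355 CPM in the resistant and 20.8 and 8.75 CPM in the normal libraries. Ddr2, a receptor tyrosine kinase for fibrillar collagens, was at 738 and 487 CPM against 122 and 90.9 CPM. Gpr56, an adhesion receptor for collagen III, was at 7.23 and 8.07 CPM against 162 and 192 CPM. Cspg4 (NG2), a proteoglycan that binds collagens V and VI, was at 19.8 and 12.8 CPM against 281 and 193 CPM. For all 4 of these receptors the groups lay apart, as they did for 64.7% of all genes tested. The 4 were named for the smallest adjusted p in the list, a choice that favours groups lying apart. Itgb1, the integrin beta chain of the list, was called lower, at 242 and 208 CPM in the resistant and 674 and 600 CPM in the normal libraries. It falls outside the rule for named genes and was chosen with its values known.

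Of the tested genes in the list of fibril and basement membrane partners, 15 of 20 rose and 1 fell (80.0% called, beside 29.4%). The list shares Dcn and Postn with the fibroblast markers. Dcn, a small proteoglycan of collagen fibres, was at 92.5 and 127 CPM in the resistant and 0.743 and 0.168 CPM in the normal libraries. Aspn, of the same family, was at 155 and 223 CPM against 15.6 and 15.7 CPM. Dpt, which promotes fibre assembly, was at 179.6 and 246 CPM against 3.22 and 0.505 CPM. Lamb1, a laminin chain of basement membranes, was at 999 and 879 CPM against 129 and 105 CPM, a log2 fold change of 3.01 ± 0.24. Of the other laminin chains in the list, Lama4 and Lamc1 rose and Lama5 fell, the latter at 5.71 and 1.10 CPM against 110.3 and 53.0 CPM. Lama4, Lamc1 and Lama5 fall outside the rule for named genes and were chosen with their values known.

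The authors' deposited table lists 36 collagen genes and calls 6 of them higher and 4 lower in the resistant group, where 8.50% of all genes listed there were called. In the authors' deposited table no gene of any kind was called with a log2 fold change between -2 and 2, and the largest adjusted p among called genes was 0.0999. Col3a1 stood at 1.99 with an adjusted p of 0.00807 in the authors' deposited table and was not called there. Col1a1, Col1a2 and Col17a1, called higher in the edgeR fit, stood at 0.63, 0.79 and 1.84 there and were not called either. Their adjusted p-values there lay above 0.0999. Col4a6 had 5.33 with an adjusted p of 0.186 in the authors' deposited table, also without a call. DESeq2 run here on the same counts gave Col3a1 1.99 (adjusted p = 1.11e-10) and Col1a2 0.79 (adjusted p = 0.0275). These log2 fold changes match the deposited ones, but the adjusted p-values do not. How the deposited p-values were computed is not stated in the sources used here. The deposited calls and the edgeR calls may therefore come from unlike tests.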

How the data were processed

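Polyadenylated RNA was sequenced in 4 libraries of mouse CAFs, 2 per group. Sample titles gave the groups and replicate numbers. The authors deposited whole-number read counts per gene symbol. The submitters' processing notes list, without roles, the build mm9 and the tools HTSeq 0.7.2, TopHat2 2.1.1, DESeq2, Picard 1.62 and bcl2fastq 2. Their settings, strand handling and gene annotation were not given in the sources used here. Per the labels' protocols, libraries were made by TruSeq and by SMART-seq2, without saying which libraries. The authors also deposited log2 fold changes with adjusted p-values, given only where named.

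Counts were fitted in edgeR 4.0.16 (R 4.3.3): filterByExpr with a minimum count of 10, TMM factors, glmQLFit and glmQLFTest with group as the only term, resistant minus normal, Benjamini-Hochberg adjustment over all genes tested. The procedure was tested on simulated data. The 12 alternatives were relative log expression factors, library totals, read-density offsets (loess, span 0.5, reads per exonic base), no filter, limma-voom (limma 3.58.1), DESeq2 1.42.0, a floor of 50 reads in 2 libraries, a replicate block and each library left out. Where 1 library remained in a group, its spread was taken from the other group. Lengths and GC content come from GENCODE M21 (GRCm38), per principal transcript. In it, 7 of the 24 tested collagen genes share exonic bases with another gene, at most 2.50% of them. Members and lists were chosen with earlier results of these data known. Named genes were all tested members and up to 4 called genes of each pathway list by adjusted p.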

Additional observations from a re-analysis of the deposited data

How the results depend on the processing

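Of 281 values for single collagen genes under the alternatives, 251 kept direction and side of the threshold, 13 lost the call, 7 gained one in the same direction and 10 changed sign, of which 1 (Col5a1 without resistant replicate 1) was also called. The sign changes were all in genes that the test on all 4 libraries did not call. Col5a1 went to -0.14 with library totals alone, -0.047 with no low-count filter, -0.021 with DESeq2, -0.12 with limma-voom, -0.14 with the replicate block, -0.86 without resistant replicate 1 and -0.25 without normal replicate 2. Col16a1 went to -0.58 without resistant replicate 1. Col15a1 and Col8a1 went to 0.044 and 0.12 without resistant replicate 2. With 1 library left out, values ran from -1.64 to 0.044 for Col15a1, -0.58 to 0.99 for Col16a1, -0.86 to 0.56 for Col5a1 and -0.64 to 0.12 for Col8a1. The cause was not tested. Leaving out 1 library gave 8 to 10 higher and 4 to 9 lower collagen genes, the 9 without resistant replicate 1. Over all genes it gave 1078 to 2024 higher and 951 to 2323 lower, against 1857 and 1668, and for pathway genes 28 to 38 higher and 6 to 11 lower, against 34 and 7. With library totals alone, with no low-count filter and with the replicate block, 11 pathway genes were lower instead of 7. The difference in the share of reads in collagen genes was 0.309 percentage points of library totals, 0.390 of TMM-scaled totals and 0.223 to 0.394 with 1 library left out. The replicate block gave 11 higher and 5 lower collagen genes, adding Col5a3, and 2257 and 2267 over all genes. Nothing in the labels says that the numbers pair the libraries; deviations of same-numbered libraries from their group means correlated at 0.217. With 2 libraries a group and at most 5558541 reads each, genes of few reads were not tested.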
